A study of Mus musculus with 30 samples.

Results

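Myelin, the lipid-rich sheath that speeds conduction along axons, is made in the brain by oligodendrocytes, and 9 genes of these cells were followed here in open chromatin of the mouse ventral hippocampus: Mbp, Mobp, Mal, Mag, Mog, Cnp, Ermn, Galc and Sox10. A peak was taken for a gene if its region on the build GRCm38 overlapped the RefSeq gene body extended by 10 kb on both sides, which gave 127 of the 257149 peaks in the deposited table. Mbp held 48 of them, Mobp 24, Cnp and Galc 13 each, Sox10 10, Mog 9, Mag 4, and Mal and Ermn 3 each. None of the 127 lay in the window of more than 1 of the 9 genes, and all 127 passed the filter on low counts.

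Open chromatin was read by ATAC-seq, which uses a transposase to fragment accessible DNA for sequencing, on 50000 nuclei per library from 30 mice, each library from a different animal. The design allows the response to an acute stress to be compared between animals with and without earlier repeated stress. Mice were either handled gently or held in a tube for 1.5 h on each of 10 consecutive days, housed singly for 24 h, and then sampled either without a further restraint (0 min) or at 45 min of a new one. There were 8 handled mice at 0 min (4 females, 4 males), 7 handled mice at 45 min (3 females, 4 males), 8 chronically restrained mice at 0 min (4 females, 4 males) and 7 chronically restrained mice at 45 min (4 females, 3 males), and each group was spread over 4 batches. The labels used here give no strain, genotype or age. Total counts ran from 26104576 to 55294838 per library.

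Myelin is compacted by the basic protein encoded by Mbp, and Mobp encodes a second, smaller basic protein of the central myelin sheath. Mag and Mog encode surface proteins of the inner and the outermost layer of the sheath. Sox10 is the transcription factor that keeps oligodendrocyte genes active, acting together with MYRF in cells that are forming myelin. Tissue was not sorted, so oligodendrocyte nuclei were a share of the nuclei in each library, and in such bulk data fewer cells of a type and less open chromatin per cell cannot be told apart.

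The stretch before the start of each gene is shown for the 4 genes whose start peaks or summed counts are compared most closely. Each line gives the 250 bases before the RefSeq start (build GRCm38.p6), 5′ to 3′ on the strand of the gene, and every one of these stretches lay fully inside a peak of the table. Capitals mark matches, on either strand, to short motifs: ACAAAG (reverse complement CTTTGT) and ACAATG, which SOX proteins bind, and CTGGCAC and CTGGTAC (reverse complement GTACCAG), which MYRF binds.
Mobp, chr9:120149492-120149741, plus strand: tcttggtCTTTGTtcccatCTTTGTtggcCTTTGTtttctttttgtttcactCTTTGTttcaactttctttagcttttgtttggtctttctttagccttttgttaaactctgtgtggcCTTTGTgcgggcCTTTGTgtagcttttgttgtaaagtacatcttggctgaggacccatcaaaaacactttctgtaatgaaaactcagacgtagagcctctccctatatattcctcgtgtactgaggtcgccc
Mag, chr7:30914864-30915113, minus strand, first of the starts listed: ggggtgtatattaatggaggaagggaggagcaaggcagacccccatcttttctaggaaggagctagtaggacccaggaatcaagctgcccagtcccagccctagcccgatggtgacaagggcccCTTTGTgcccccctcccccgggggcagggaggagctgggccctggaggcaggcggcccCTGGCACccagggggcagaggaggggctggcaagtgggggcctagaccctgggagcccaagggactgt
Mog, chr17:37023399-37023648, minus strand: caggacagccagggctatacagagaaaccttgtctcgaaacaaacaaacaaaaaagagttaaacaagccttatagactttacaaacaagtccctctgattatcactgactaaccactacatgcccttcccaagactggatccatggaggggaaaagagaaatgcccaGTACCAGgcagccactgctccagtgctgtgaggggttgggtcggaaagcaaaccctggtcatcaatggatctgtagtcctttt
Ermn, chr2:58052865-58053114, minus strand: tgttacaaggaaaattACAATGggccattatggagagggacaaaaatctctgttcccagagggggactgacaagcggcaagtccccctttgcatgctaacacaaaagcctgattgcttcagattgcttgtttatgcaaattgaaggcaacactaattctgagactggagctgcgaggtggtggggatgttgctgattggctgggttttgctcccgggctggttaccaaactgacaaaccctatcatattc

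The Mobp stretch held 6 matches to ACAAAG, all on the opposite strand and set in a run of repeats rich in thymine. At least 1 match to this motif was present in 18.7% of the 32851 windows of 300 bases (250 before to 50 after the start) in the RefSeq table, and no other window held as many as 6. Mag held 1 match to ACAAAG and 1 to CTGGCAC, a motif found in 5.01% of windows. Mog held 1 match to CTGGTAC (2.24% of windows) and Ermn 1 to ACAATG (12.6% of windows). Among the genes with a window that are not shown, Cnp held 1 match to ACAAAG and 1 to CTGGCAC, and Mal and Galc held 0 matches to any of these motifs. The Mal stretch had 0 of its 250 bases in a peak, while those of Cnp and Galc lay fully inside one. AGAACA, a motif of the glucocorticoid receptor, was in none of the 9 windows listed for 7 of the genes, against 19% of all windows. A match describes the letters and says nothing of binding. Windows for Mbp and Sox10 were not used here.

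Per length, the 9 genes were of like accessibility. Their summed level, in CPM (the count relative to the TMM-scaled library total) per kb of peak, ran from 3.13 at Mag to 4.95 at Mal, and the median over all 17633 genes with peaks was 3.97. As totals over the window they differed with the number and width of peaks. Mbp had a median of 433 CPM over 30 libraries (range 408 to 457), and Ermn had 4.74 CPM (3.31 to 8.69). The other lists of marker genes, for precursors, neurons, astrocytes, microglia, vessels and choroid plexus, had median levels of 3.00 to 4.32 CPM per kb, beside 3.76 for the 9 genes. Some peaks also overlie other genes: all 13 Cnp peaks lie over Ttc25 or Dnajc7, 4 Sox10 peaks over Polr2f, 1 Mog peak over Zfp57 and 1 Mbp peak over Zfp236, and counts there cannot be assigned to either gene.

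Acute restraint was followed by a higher level at Mobp, and at no other of the 9 genes did the summed counts pass the test. In handled mice the Mobp sum was 79.0 to 89.0 CPM at 0 min (median 80.8) and 86.1 to 97.0 CPM at 45 min (median 94.3). In chronically restrained mice it was 72.2 to 93.0 CPM at 0 min (median 80.9) and 84.0 to 95.2 CPM at 45 min (median 87.9). Of the 7 handled mice at 45 min, 6 lay above every handled mouse at 0 min, while after chronic restraint 1 of 7 did and the groups overlapped. The overlap rested on animal 3 (93.0 CPM at 0 min). The next highest chronically restrained mouse at 0 min had 83.4 CPM, below all 7 at 45 min.

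The Mobp sum rose by a log2 change of 0.16 ± 0.028 (SE) averaged over both histories (edgeR quasi-likelihood F-test, adjusted p = 0.00156 over 17633 genes). Of all genes 0.414% were called in this comparison, 65 of 73 higher, and Mobp ranked 19th by p-value. The rise was 0.19 ± 0.039 in handled mice (adjusted p = 0.0375, 0.125% of all genes called) and 0.14 ± 0.039 in chronically restrained mice (adjusted p = 0.530, 0.017% called), and the difference between histories, −0.05 with a 95% interval from −0.17 to 0.06, did not pass (0% of all genes called). By sex the rise was 0.18 ± 0.039 in females and 0.15 ± 0.039 in males, with a difference of 0.03 (95% interval −0.08 to 0.14). With the mean level of the other 8 genes in each library as a covariate, added after the data were seen, the rise was 0.18 ± 0.023 (edgeR adjusted p = 1.63e-06).

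**Figure D1:**
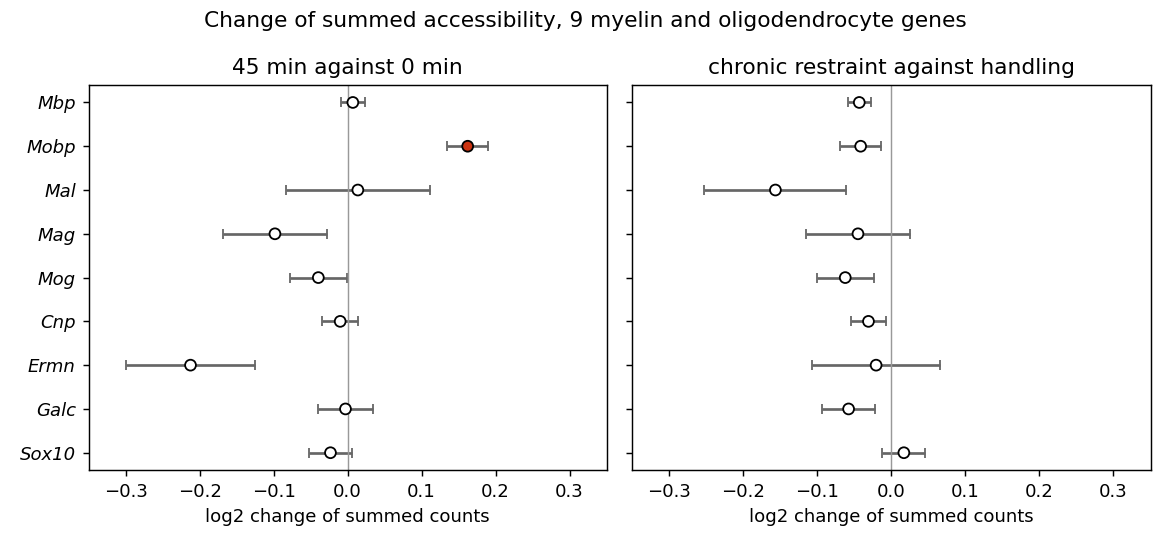
Log2 change of summed counts (x axis) for each of the 9 genes (y axis), 45 min against 0 min on the left and chronic restraint against handling on the right, over 30 libraries. Points are fitted changes, bars are ±1 SE, and the filled point is the only change with an edgeR adjusted p under 0.05. Mobp lies at 0.16 on the left, Ermn at −0.21, and 8 of 9 points lie below 0 on the right.

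The direction was the same in each batch taken alone, at 0.11 ± 0.062, 0.23 ± 0.036 and 0.17 ± 0.044 in batches 1 to 3 and 0.14 in batch 4. Batch 4 had only 2 libraries at 45 min, 1 of each history (87.9 and 92.6 CPM). Of these, 1 lay above every library at 0 min of that batch. In batch 2 all 4 libraries at 45 min (92.3 to 97.0 CPM) lay above all 4 at 0 min (80.2 to 81.9 CPM), and in batch 3 it was 3 of 4. In batch 1 a single library at 45 min lay above every library at 0 min, where values spread from 72.2 to 93.0 CPM. The call was lost without batch 2 (0.14 ± 0.035, adjusted p = 0.299), without batch 3 (0.16 ± 0.034, adjusted p = 0.0672), in females alone (0.19 ± 0.036, adjusted p = 0.103) and in males alone (0.15 ± 0.034, adjusted p = 0.0564). Over all genes 15 were called without batch 2, 5 in females alone and 31 in males alone, against 73 with all libraries.

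**Figure D2:**
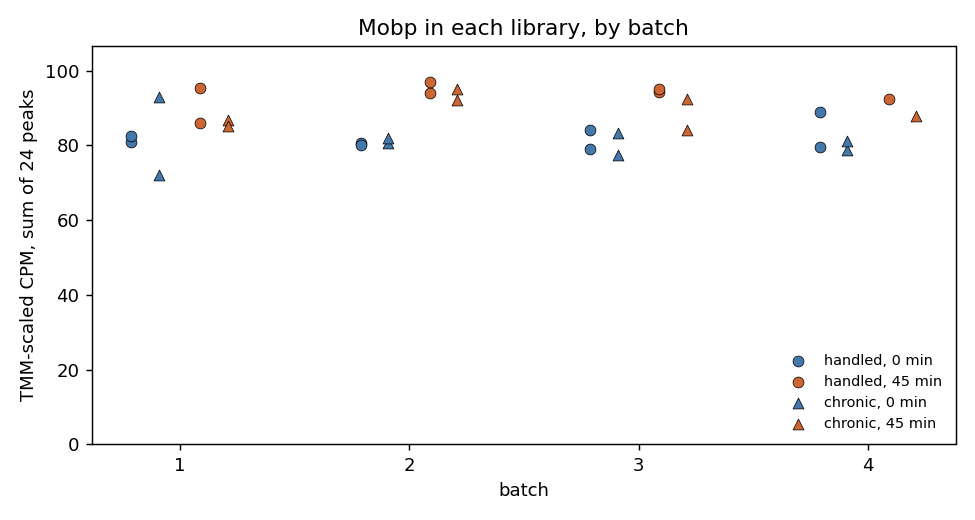
Summed Mobp counts in TMM-scaled CPM (y axis) for each of 30 libraries by batch (x axis), with circles for handled and triangles for chronically restrained mice, blue for 0 min and orange for 45 min. All 4 orange points of batch 2 lie above all blue points of that batch, and in batch 1 they overlap.

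The rise at Mobp was spread along the gene and was not centred on its start. Of its 24 peaks, 23 had a log2 change above 0, against 49% of all peaks, with a median of 0.16 against −0.0025 for all peaks. An unadjusted p under 0.05 was seen at 13 of the 24, all higher, against 7.17% of all peaks. These peaks share 1 locus and are not independent. The 4 peaks before the start had a median change of 0.26, the 13 over the gene body 0.14 (12 above 0) and the 7 past the end 0.21. The peak over the start itself (120149189 to 120149962), which holds the sequence shown above, had a change of 0.08 ± 0.077 and did not pass. The strongest signal by level inside the gene, a peak of 13 CPM at 120173531 to 120175973, had 0.16 ± 0.050 (edgeR adjusted p = 0.305).

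A single Mobp peak was called, at chromosome 9, 120142152 to 120144225, between genes and 5517 bases before the Mobp start, with Rpsa also within 10 kb. Handled mice had 6.51 to 9.54 CPM there at 0 min (median 8.37) and 9.0 to 11.5 CPM at 45 min (median 10.3). Chronically restrained mice had 7.07 to 9.85 CPM at 0 min (median 8.11) and 7.65 to 9.99 CPM at 45 min (median 9.44). In handled mice 6 of 7 libraries at 45 min lay above all at 0 min, and in chronically restrained mice 1 of 7. The highest of the chronically restrained mice at 0 min was again animal 3 (9.85 CPM), and the next had 9.03 CPM. The log2 change was 0.24 ± 0.051 (edgeR adjusted p = 0.019 over 257143 peaks), where 0.116% of all peaks were called, 188 of 299 higher. It was 0.33 ± 0.072 in handled mice (adjusted p = 0.0925) and 0.15 ± 0.072 in chronically restrained mice (adjusted p = 1), with a difference of −0.18 ± 0.10 that did not pass (adjusted p = 1). Within batches 1 to 4 it was 0.08, 0.42, 0.16 and 0.32. Without batch 2 it fell to 0.17 ± 0.061 (adjusted p = 0.857), and without batch 3 or batch 4 the adjusted p was 0.0685 and 0.0706. Of all 257143 peaks, 40 were called without batch 2.

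Changes around Mobp were smaller, mostly above 0, and did not pass the test. Within 200 kb, 40 of the 56 peaks on the side before the start and 50 of the 73 past the end lay above 0. Their median change was 0.03 on each side, with 0 called on either side by edgeR, and an unadjusted p under 0.05 was seen at 2 of the 56 and 4 of the 73. Of the 8 other genes within 200 kb, 7 had sums above 0, and none was called. Xirp1, which encodes an actin-binding protein of muscle, had a summed change of 0.06 ± 0.022 (edgeR adjusted p = 0.381). Rpsa, which encodes a ribosomal protein, had 0.05 ± 0.022 (adjusted p = 0.428). The Rpsa window also holds the called Mobp peak, so the sums of Rpsa and Mobp share counts. Cx3cr1, the fractalkine receptor and a microglial marker, had −0.08 ± 0.053 (adjusted p = 0.730) and was the only one below 0.

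**Figure D3:**
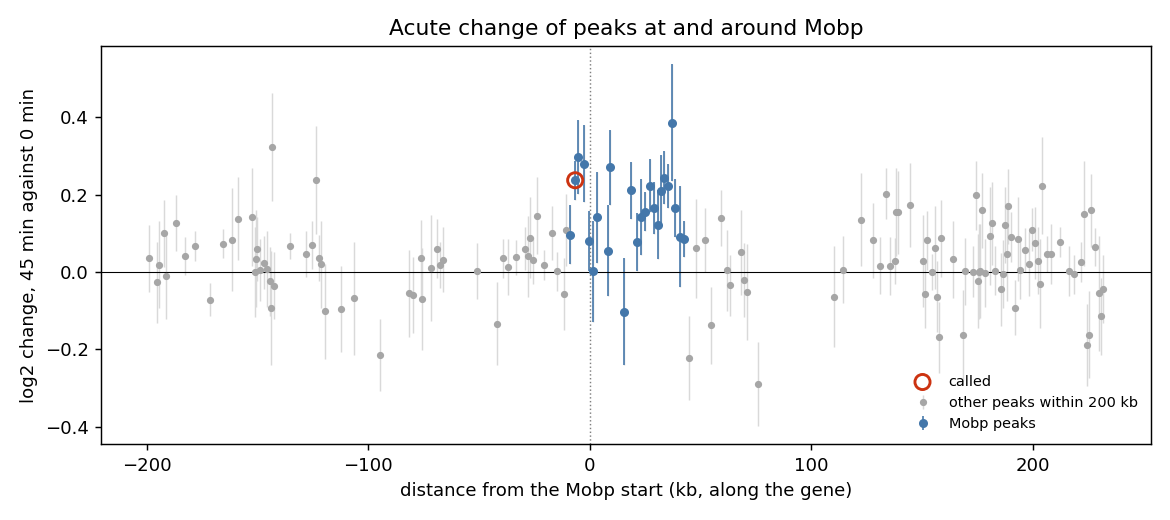
Log2 change at 45 min against 0 min (y axis) of each peak by its distance from the Mobp start in kb (x axis), with bars of ±1 SE. Blue points are the 24 Mobp peaks, of which 23 lie above 0, grey points are the other peaks within 200 kb, whose medians are 0.03 on both sides, and the red ring marks the called peak.

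The genes were then compared with each other, as the log2 ratio of their summed counts within each library, with times permuted within history and batch. Over the 36 pairs, the acute change differed in 8 after Benjamini-Hochberg adjustment (exact permutation test, two-sided), and 7 of these were pairs with Mobp. Mobp exceeded Mbp by 0.15 (exact permutation adjusted p = 0.000879), Cnp by 0.17 (0.000257), Sox10 by 0.18 (0.00156), Galc by 0.18 (0.00137), Mog by 0.21 (0.000429), Mag by 0.26 (0.00255) and Ermn by 0.40 (0.000257). The difference from Mal, 0.14, did not pass (exact permutation adjusted p = 0.362), and Mal, with only 3 peaks, had an interval of its own change from −0.18 to 0.21. The eighth pair was Mal against Ermn, at 0.26 (exact permutation adjusted p = 0.0255).

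Mbp was the most widely measured of the genes, and its acute change was small. Its sum had a log2 change of 0.01 ± 0.016 (95% interval −0.03 to 0.04), 26 of its 48 peaks lay above 0, and 0 were called. Handled mice had medians of 440 CPM at 0 min and 441 CPM at 45 min, and chronically restrained mice 426 and 433 CPM. The broad peak over the lower-numbered end of the gene, at chromosome 18, 82473150 to 82476823 and 17.9 CPM on average, had −0.03 ± 0.042. A peak in the gene body at 82500852 to 82501971 had the smallest acute p among Mbp peaks. In chronically restrained mice it ran from 2.01 to 3.05 CPM at 0 min and from 2.64 to 4.89 CPM at 45 min, and 6 of 7 at 45 min lay above all at 0 min. In handled mice the ranges were 2.15 to 3.82 and 2.09 to 3.76 CPM. Its change was 0.52 ± 0.12 after chronic restraint (edgeR adjusted p = 0.201) and 0.01 ± 0.12 after handling, and the difference of 0.51 ± 0.17 did not pass (unadjusted p = 0.00276, adjusted p = 1).

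**Figure D4:**
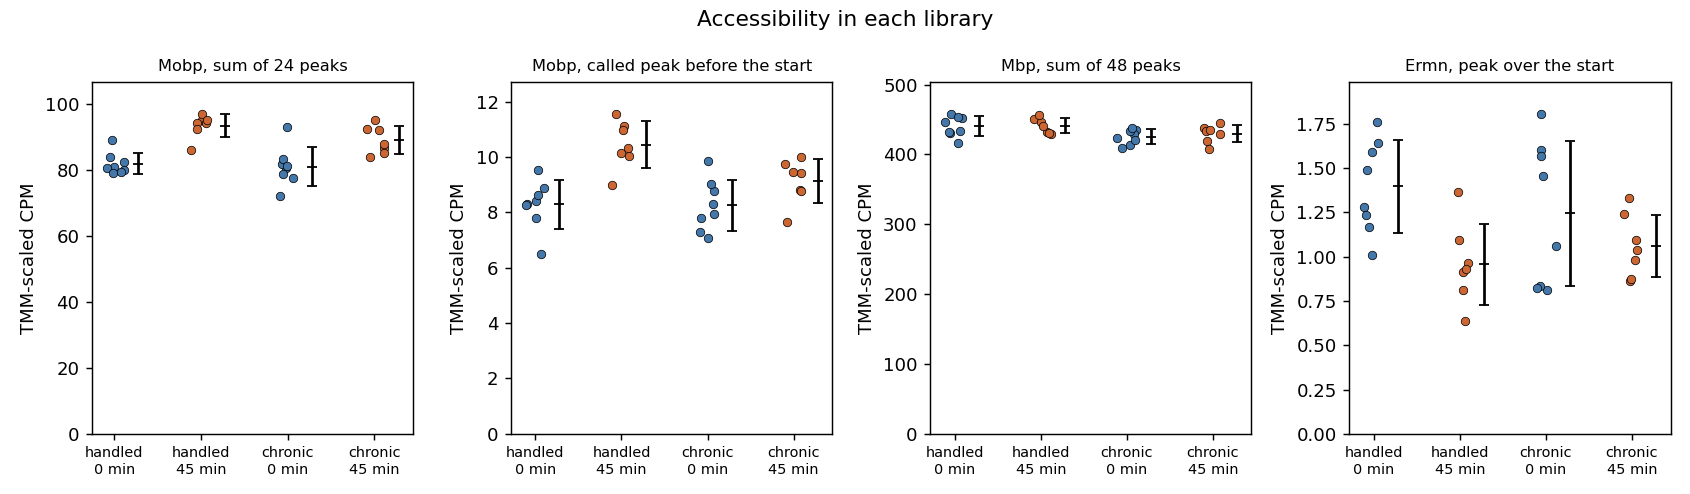
Accessibility in TMM-scaled CPM (y axes, each from 0) in each library of the 4 groups (x axes) for the Mobp sum, the called Mobp peak, the Mbp sum and the Ermn start peak, with bars for the mean ± SD of 7 or 8 libraries. In handled mice 6 of 7 libraries at 45 min lie above all at 0 min in both Mobp panels, and the Mbp groups overlap.

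Mal encodes a proteolipid that helps carry myelin proteins to the membrane. Its sum had a median of 6.53 CPM (4.28 to 11.7) and an acute change of 0.01 ± 0.097, and all 3 of its peaks were uncalled. The peak within its start window, at chromosome 2, 127656108 to 127656459, changed by 0.07 ± 0.11, and the peak with the smallest acute p, past the gene end at 127627986, by 0.17 ± 0.10 (unadjusted p = 0.117).

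At the surface proteins Mag and Mog the start peaks had negative acute changes that did not pass. Mag, a lectin that binds the axon, had a peak over its start (30914699 to 30915126) with 1.57 to 3.79 CPM in handled mice at 0 min and 1.40 to 2.52 CPM at 45 min, and a log2 change of −0.28 ± 0.12 (edgeR adjusted p = 0.601). Mog, an antigen of autoimmune demyelination, had a peak over its start (37023098 to 37023682) with medians of 2.79 and 2.30 CPM at 0 and 45 min in handled mice and 2.29 and 1.99 CPM in chronically restrained mice. The Mog peak's change was −0.25 ± 0.089 (edgeR adjusted p = 0.40). The summed counts had −0.10 ± 0.071 at Mag and −0.04 ± 0.039 at Mog, and neither passed.

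Ermn, which encodes an actin-binding protein of late myelination, had the lowest acute change of the 9 sums, −0.21 ± 0.088 (95% interval −0.39 to −0.03), with an edgeR adjusted p of 0.428. All 3 of its peaks lay below 0. Its start peak (58052811 to 58053212) holds the Ermn sequence above. In handled mice it had 1.01 to 1.76 CPM at 0 min (median 1.38) and 0.635 to 1.36 CPM at 45 min (median 0.931), and 5 of 7 at 45 min lay below all at 0 min. In chronically restrained mice it ran from 0.810 to 1.80 CPM and from 0.865 to 1.33 CPM, with overlap throughout. The change was −0.37 ± 0.12 (edgeR adjusted p = 0.266), and at about 1 CPM this peak is among the least covered described here. The share of counts at gene ends differed between libraries, from 37.7% to 42.1%. The Ermn sum was called lower when that share was a covariate (−0.22 ± 0.064, adjusted p = 0.0233) or when the share of the top 1% of peaks by coverage was (−0.24 ± 0.071, adjusted p = 0.0348), and was not called in the other alternatives. Calls rose over all 17633 genes in these 2 fits, to 1001 (542 lower) and 748 (470 lower), from 73 (8 lower) in the main fit.

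Cnp, Galc and Sox10 had sums with acute changes within 1 SE of 0, and no peak of theirs was called. Cnp encodes a phosphodiesterase of non-compact myelin, and its sum changed by −0.01 ± 0.024. Its largest peak, over the start at chromosome 11, 100574108 to 100583081, had 42.9 CPM and 0.01 ± 0.038, and the peak with its smallest acute p, at 100587312, −0.24 ± 0.096 (edgeR adjusted p = 0.544). Galc encodes the lysosomal enzyme that breaks down galactosylceramide and is deficient in Krabbe disease. Its sum changed by −0.003 ± 0.037, its start peak at chromosome 12, 98258491 to 98261404, by −0.001 ± 0.046, and a faint peak of 0.571 CPM at 98246929 by 0.41 ± 0.14 (edgeR adjusted p = 0.345). The Sox10 sum changed by −0.02 ± 0.029. Its most covered end peak, over the lower-numbered gene end at chromosome 15, 79150530 to 79158643, had −0.03 ± 0.039. A further Sox10 peak, at 79164102 to 79167530, lay over the other gene end, and which end is the start was not determined here. This peak had medians of 14.5 and 12.9 CPM at 0 and 45 min in handled mice. Its change was −0.15 ± 0.050 (edgeR adjusted p = 0.308), which was called with either of those 2 covariates (adjusted p = 0.0219 and 0.0232). With these covariates 1762 and 1763 of all 257143 peaks were called, against 299 in the main fit.

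Chronic restraint against handling gave no call at any of the 127 peaks or 9 sums, where edgeR called 0% of all peaks and of all genes, and 8 of the 127 peaks had an unadjusted p under 0.05, all lower (6.30%, against 5.44% of all peaks). Of the 9 sums, 8 lay below 0 with a median log2 change of −0.04, beside 30.8% of all genes above 0 and a median of −0.02 over all genes. Of the 127 peaks 32 lay above 0 (25.2%, against 48% of all peaks), with a median of −0.04 against −0.005. DESeq2 called 0 of the 127 as well. Mal had the lowest sum (−0.16 ± 0.096), then Mog (−0.06 ± 0.039), Galc (−0.06 ± 0.036), Mag (−0.05 ± 0.070), Mbp (−0.04 ± 0.016), Mobp (−0.04 ± 0.027), Cnp (−0.03 ± 0.024) and Ermn (−0.02 ± 0.086), and Sox10 was at 0.02 ± 0.029. Several of these values rest in part on animal 45 (handled, female, 0 min), the library with the highest share of counts at gene ends. Without it Mal was at −0.08 ± 0.078, Mog at −0.03 ± 0.029, Galc at −0.03 ± 0.030, Mag at −0.01 ± 0.063, Cnp at −0.02 ± 0.021, Mobp at −0.03 ± 0.024 and Ermn at 0.05 ± 0.069, while Mbp stayed at −0.04 ± 0.015. Then 7 of 9 sums and 84 of 127 peaks lay below 0, and the median over all genes was 0.0004. None of the 36 pairs of genes differed in this change (smallest exact permutation adjusted p = 0.701).

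Mbp carried the smallest p of these sums. At 0 min its level was 416 to 457 CPM after handling and 409 to 438 CPM after chronic restraint, and at 45 min 429 to 456 CPM and 408 to 445 CPM. The groups overlap, and the change of −0.04 (95% interval −0.08 to −0.01, unadjusted p = 0.0099) had an adjusted p of 0.700. Of its 48 peaks 40 lay below 0, and 4 of these had an unadjusted p under 0.05. The peak with the smallest p, at 82577370 to 82582562 near the other gene end, had medians of 17.8 and 16.1 CPM at 0 min in handled and chronically restrained mice and changed by −0.12 ± 0.043 (edgeR adjusted p = 0.897).

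**Figure D5:**
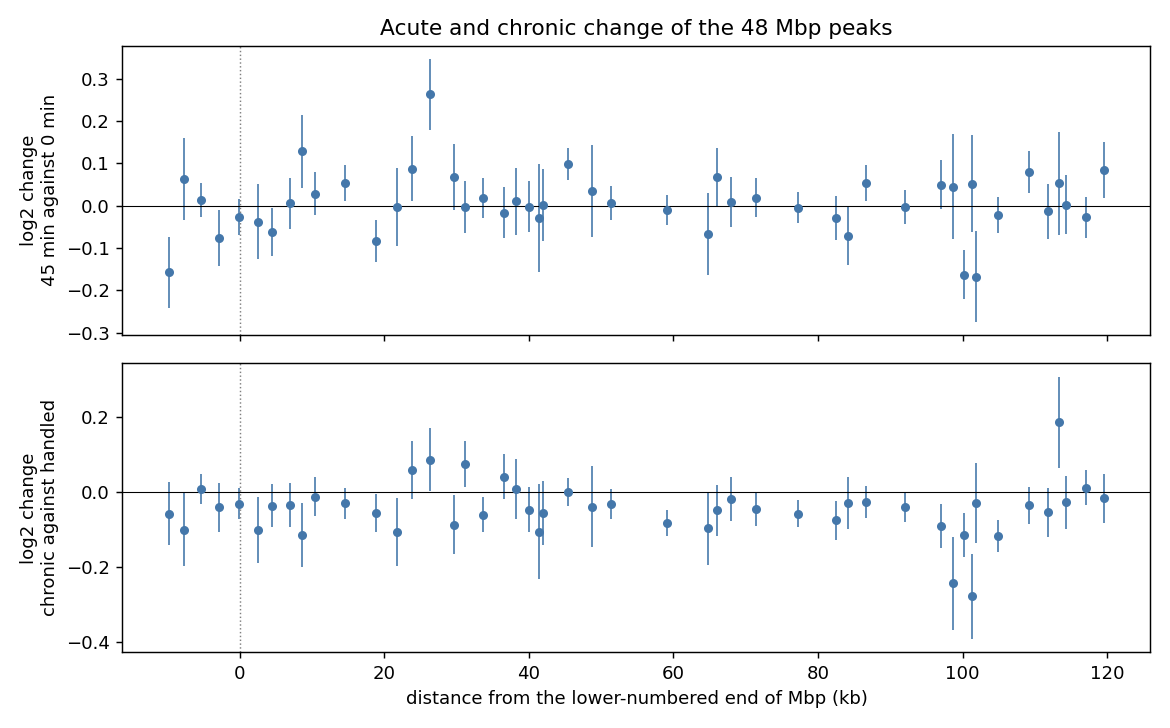
Log2 change of the 48 Mbp peaks (y axes) by distance from the lower-numbered end of the gene in kb (x axis), 45 min against 0 min above and chronic restraint against handling below, with bars of ±1 SE. In the lower panel 40 of 48 points lie below 0, none of them called, and in the upper panel 26 lie above 0.

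The smallest chronic p among the 127 peaks belonged to a peak in the Cnp window that lies over Ttc25 (100563925 to 100566082). It had 11.4 to 16.3 CPM in handled and 9.22 to 13.9 CPM in chronically restrained mice at 0 min, and 11.2 to 13.6 and 9.68 to 12.7 CPM at 45 min, with overlap at both times. Its change was −0.17 ± 0.047 (unadjusted p = 0.000392, edgeR adjusted p = 0.825). The Mobp start peak had −0.17 ± 0.077 (adjusted p = 0.912) and the Mog start peak −0.21 ± 0.088 (adjusted p = 0.912). At Mal a peak at 127627233 had −0.23 ± 0.13, at Galc a peak at 98244223 had −0.23 ± 0.11, at Mag a peak at 30916795 had −0.15 ± 0.11, at Ermn a peak at 58055310 had −0.08 ± 0.11, and at Sox10 a peak at 79145554, over Polr2f, had 0.10 ± 0.079. None of these passed.

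Sex made no called difference at any of the 127 peaks or 9 sums, where 0.0350% of all peaks and 0.329% of all genes were called. The negative chronic changes of the sums lay mostly in females, with no call in either sex or for the difference (0% of all genes called by edgeR in each). In females all 9 sums lay below 0, 5 with an unadjusted p under 0.05. Over all genes in females the median was −0.05, and 4308 of 17633 had an unadjusted p under 0.05. In males 3 of 9 lay below 0, 0 with an unadjusted p under 0.05, beside a median of 0.02 over all genes and 736 of 17633 with an unadjusted p under 0.05. Ermn had −0.26 ± 0.11 in females and 0.22 ± 0.11 in males, and its difference of −0.47 ± 0.16 (female minus male) had an edgeR adjusted p of 0.224 (unadjusted p = 0.00495). Although no gene had a smaller adjusted p, the value is tied: Cnp shared it with an unadjusted p of 0.0163. For this difference 3585 of 17633 genes had an unadjusted p under 0.05. Mal had −0.36 ± 0.13 in females and 0.06 ± 0.13 in males, Mag −0.17 ± 0.096 and 0.09 ± 0.097, and Cnp −0.09 ± 0.032 and 0.03 ± 0.032. Mbp had −0.04 in both, and of its 48 peaks 29 lay below 0 in females alone and 36 in males alone. Without animal 45, an alternative added after the data were seen, all 9 sums in females still lay below 0, 1 with an unadjusted p under 0.05. Of all 17633 genes 1236 had an unadjusted p under 0.05 in females in that fit. In males 4 of 9 sums lay below 0 in that fit, 2 with an unadjusted p under 0.05, beside 1286 of all genes. Those 2 were Ermn, at 0.20 ± 0.086, and Mbp, at −0.045 ± 0.022. The values in females were then −0.10 ± 0.093 at Ermn, −0.22 ± 0.11 at Mal, −0.11 ± 0.093 at Mag and −0.07 ± 0.031 at Cnp, and the difference between sexes at Ermn was −0.30 ± 0.13 (edgeR adjusted p = 0.633).

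Of 34 further oligodendrocyte genes, 33 had peaks. By edgeR none of their sums was called for the acute change (13 above 0, median −0.01, 4 with an unadjusted p under 0.05) or for chronic restraint (5 above 0, median −0.04, 5 with an unadjusted p under 0.05). Over all 17633 genes, 1577 had an unadjusted p under 0.05 for the acute change (median 0.0002) and 1215 for chronic restraint (median −0.02). Of their 413 peaks 1 was called, against 0.116% of all peaks. It was higher at 45 min and lay at Hapln2, a link protein of the matrix at nodes of Ranvier (chromosome 3, 88030577 to 88031034, 0.51 ± 0.091, edgeR adjusted p = 0.00134). The Hapln2 sum had 0.12 ± 0.044 (adjusted p = 0.297), Myrf 0.05 ± 0.019 (adjusted p = 0.381) and Opalin −0.10 ± 0.048 (adjusted p = 0.544). The summed level of the 33 was 1956 to 2184 CPM at 0 min and 1985 to 2103 CPM at 45 min after handling, and 1953 to 2120 and 2006 to 2107 CPM after chronic restraint, and all 4 groups overlapped. After handling, the oligodendrocyte precursor list summed to 592 to 686 CPM at 0 min and 603 to 625.1 CPM at 45 min, and the microglia list to 331 to 403 and 351 to 369 CPM, also with overlap.

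Across the 30 libraries, with group, sex and batch left in the levels, 6 of the 9 genes moved with the others, and Mobp, Mbp and Sox10 did not pass. The level of each gene was compared with the mean of the other 8, and the relations that passed (two-sided permutation test, 100000 resamples, adjusted over 9) were those of 6 genes. Mag had r = 0.78 (rho = 0.77), Mal 0.74 (0.53), Ermn 0.65 (0.48), Cnp 0.64 (0.49), Mog 0.63 (0.30) and Galc 0.52 (0.21). Permutation adjusted p-values of r ran from 4.5e-05 to 0.00857 over these 6, and the unadjusted p of 1e-05 behind the lowest, for Mag and Mal, is the smallest these permutations can give. The rho did not pass for Mog and Galc. Mobp had r = 0.22 (rho = 0.12, permutation adjusted p of r = 0.283), Mbp 0.35 (0.24) and Sox10 0.13 (0.34). Without the 2 libraries farthest from the median, r was 0.67 for Mag, 0.48 for Mal, 0.49 for Ermn, 0.33 for Mog, 0.27 for Cnp and 0.09 for Galc, so the relation of Galc rested on them, and those of Cnp and Mog did so in good part. Within batches r ran from 0.46 to 0.95 for Mag and from 0.60 to 0.96 for Mal, while Mobp went from −0.12 to 0.69. After removal of group, sex and batch, r passed for all but Sox10, while rho did not pass for Mbp and Galc either. Mobp then had r = 0.63 (permutation adjusted p of r = 0.000495), Mbp 0.39 (0.0401) and Sox10 0.30 (0.104). Leaving out the 2 farthest libraries as well gave r = 0.48 for Mobp, 0.26 for Mbp and 0.30 for Galc.

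This covariation was not confined to oligodendrocyte genes. The residual level of 13903 genes had a median r of 0.52 with the mean of the 9, and the further oligodendrocyte genes had a median of 0.66 over 25 genes, with Fa2h, Sgk2, Trf, Opalin and Olig1 among the 100 most alike. Among the most alike over 30 libraries were Fahd1 (r = 0.90), Ifngr1, Azin1, Pcsk6, Meiob, Skida1, Mmp28, Catspere2 and Hagh. The median r was 0.53 over 10 genes of oligodendrocyte precursors, 0.45 over 6 of astrocytes, 0.43 over 8 of excitatory neurons, 0.32 over 5 of microglia, 0.24 over 6 of inhibitory neurons, 0.15 over 3 of endothelial and mural cells and 0.05 over 2 of choroid plexus. These values share library, depth and scaling and are given as a description. Total count scaling or leaving out animal 45 reduced the 6 relations that passed to 3.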

How the data were processed

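The authors deposited 1 table of raw counts, whole numbers per peak region, for 30 ATAC-seq libraries of mouse ventral hippocampus. Trimmomatic, Bowtie2, Picard, Genrich 0.6.1 and the build GRCm38 are named per the submitters' processing notes, and how peaks were merged and what was counted is not given in the sources used here. The table held 2 columns that match no sample, not used here. Counts were tested in edgeR 4.0.16 (R 4.3.3): filterByExpr, TMM scaling, quasi-likelihood F-tests with group, sex and batch, and Benjamini-Hochberg adjustment over all 257143 tested peaks, with a call at an adjusted p under 0.05. Counts were also summed over the peaks within 10 kb of each protein coding gene (GenomicRanges 1.54.1), and the sums were tested over 17633 genes with the library sizes of the peak table. Changes by sex came from a fit with a mean for each group and sex, and batch. The scripts were tested on simulated data. CPM is relative to the TMM-scaled total, and errors of log2 changes are standard errors of the fit.

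Pairs of genes were compared by exact enumeration of 419904 (times) or 559872 (histories) permutations within batch, a test added after values were seen. Promoter windows came from RefSeq (GRCm38.p6), where 7 of the 9 genes matched. Named peaks are, per gene, the most covered peak within 1 kb of the start (or of either end where the strand was not known), those with the smallest acute and chronic p, and any called peak. The 9 genes, the lists and the tests were chosen with earlier results of these data known. Alternatives were total count scaling, no filter, no sex or batch terms, the gene-end share or the share in the top 1% of peaks as a covariate, leaving out animal 45 or a batch, single batches and sexes, DESeq2 1.42.0 and gene bodies without flanks. The median peak had 59.0 counts per library, from totals of 26104576 to 55294838, and the Ermn sum a mean of 189.9.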

Additional observations from a re-analysis of the deposited data

Results flagged for a closer look

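Within each of the 4 groups, the highest and lowest values of each summed gene and of the called Mobp peak were set against the gap to its nearest neighbour (Dixon's criterion, 95%). In 8 of 40 such groups of values 1 library stood apart, and chance alone marks about 1 in 20. Animal 45 (handled, female, 0 min) was the highest of its group at Mog (43.2 CPM, next 33), at Ermn (8.69 CPM, next 6.05) and at Galc (37.9 CPM, next 31.8), and it had the highest share of counts at gene ends, 42.1%. Animal 18, a handled male at 45 min, was the lowest of its group at Mobp (86.1 CPM, next 92.6). Animal 56, a chronically restrained female at 45 min, was the lowest at Mal (4.74 CPM, next 6.27). Animal 3, a chronically restrained male at 0 min, was the highest at Mog (33.6 CPM, next 30.4). Animal 7, a chronically restrained female at 0 min, was the lowest at Cnp (83.1 CPM, next 91.9). Animal 52, a handled female at 45 min, was the lowest at Galc (26.8 CPM, next 29.7). Without animal 45 the acute change of the Mobp sum was 0.17 ± 0.024 (edgeR adjusted p = 1.31e-05) and that of the Ermn sum −0.16 ± 0.069 (adjusted p = 0.269).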

How the results depend on the processing

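The acute change of the Mobp sum kept its direction in 18 of 18 alternatives of normalization, filter, covariates, libraries, tool and flanks, from 0.11 to 0.23, and in the fit with the other 8 genes as a covariate. The number of the 9 sums called was 1 in the main analysis. It was 2 with the gene-end share and 2 with the top 1% share as a covariate (Mobp and Ermn). Over all 17633 genes these 2 fits called 1001 and 748, against 73 in the main analysis. The number of the 9 sums called was 0 in females, 0 in males, 0 without batch 2, 0 without batch 3, and 0 in batch 1 and 0 in batch 3 taken alone. Calls over all genes also fell, to 5 of 17631 in females, 31 of 17633 in males and 15 of 17633 without batch 2. In batch 4 taken alone, with 1 library of each history at 45 min, the Mobp sum changed by 0.14. Over all 257143 peaks, 299 were called in the main analysis, 525 with total count scaling, 1762 with the gene-end share, 1763 with the top 1% share, 681 without animal 45 and 200 without batch 1. Fewer were called in males (105 of 257140), without batch 2 (40 of 257143) and in females (20 of 257140). The number of the 127 peaks called was 1 in the main analysis, 2 with total count scaling, 5 with the gene-end share, 3 with the top 1% share, 4 without animal 45, 2 without batch 1 and 2 in DESeq2. It was 0 in females, 0 in males, 0 without batch 2, 0 without batch 3, 0 without batch 4, 0 in batches 1, 3 and 4 taken alone, and 0 for gene bodies without flanks, a set that leaves out the called peak. Some of these fits used fewer libraries. The Mobp sum was still called without batch 1 (0.19 ± 0.026, edgeR adjusted p = 0.000412) and in batch 2 taken alone (0.23 ± 0.036, adjusted p = 0.000174). The causes of the shifts were not tested. Chronic and interaction counts were 0 in every alternative run. Relations between genes that passed by r went from 6 to 3 without animal 45 and to 3 with total count scaling. After removal of group, sex and batch all but that of Sox10 passed by r, and by rho those of Mbp and Galc did not pass either. The sign of the acute change, uncalled in the main analysis, turned in 5 of 18 alternatives at Mbp and at Mal, 3 at Cnp, 6 at Galc, 2 at Sox10 and 0 at Mag, Mog and Ermn. For chronic restraint it turned in 8 at Ermn, 4 at Sox10, 3 at Mag, 2 at Mal and at Cnp, 1 at Mbp and at Mog, and 0 at Mobp and Galc. No paired analysis was possible because each animal has its own number. Depth limits the Ermn, Mag and Mal sums most, with 3 or 4 peaks each.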
